A study of Homo sapiens with 24 samples.

Results

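The transcripts of 10 Polycomb genes were examined for N6-methyladenosine (m6A) along human pancreatic differentiation and after loss of the m6A demethylase ALKBH5. Members were named genes, and their peaks were all listed peaks that carried the gene's identifier. The lists held 228472 peaks, of which 170 lay on the 10 genes. m6A-seq precipitates RNA fragments with an antibody against m6A (IP) and sequences them beside the unprecipitated fragments (input), so a methylated stretch stands out as a peak. The 24 libraries formed 12 groups of 2, since IP and input were sequenced in duplicate in 6 populations. All populations derive from the human embryonic stem cell line MEL1 INS-GFP/W, which carries a GFP reporter at the insulin locus. The first batch, made from mRNA with a SYSY antibody, held 4 stages, namely undifferentiated cells (hPSC), the definitive endoderm they form (DE), progenitors of the pancreas (PP) and islet-like organoids (hILO). The second batch, made from total RNA with a Millipore antibody and rRNA-depleted input, held wild-type progenitors (WT PP) and progenitors without ALKBH5 (A5-KO PP). The knockout came from picked colonies in which CRISPR-Cpf1 had been directed at exon 1 of ALKBH5. Each population had 1 list of peaks called on its libraries together, so no value below has a replicate check and no p is given for any comparison.

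Polycomb proteins keep developmental genes silent and work in a pair of complexes. Polycomb repressive complex 2 (PRC2) methylates histone H3, and Polycomb repressive complex 1 (PRC1) binds that mark and attaches ubiquitin to histone H2A. In pluripotent cells they hold lineage genes in a silent but inducible state, and this repression is rearranged as endoderm and pancreas form. The PRC2 members examined were EZH2 and EZH1, the alternative methyltransferase subunits, SUZ12, the scaffold, EED, which binds the methylated histone tail, and JARID2, an accessory subunit that helps recruit the complex. The PRC1 members were RING1 and RNF2 (RING1B), the ubiquitin ligases, BMI1 (PCGF4), a partner that raises ligase activity, CBX2, a chromodomain reader of methylated histone H3, and PHC1, which polymerizes through its SAM domain.

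Read counts and coordinates did not run in parallel through the lists. Over whole lists the IP count of a peak hardly followed its exonic length, with a correlation across peaks (Pearson's r of logs) of 0.052 to 0.23. Entries were therefore taken as following length where r reached at least 0.4 in the 601 entries around them. Entries whose peak number broke the order of the list were left out. By this choice r was 0.53 to 0.65 over the entries taken and between -0.0028 and 0.023 over the rest, which describes the choice and tests nothing. Input reads per nt, which the choice did not use, correlated between successive peaks of the same gene at 0.49 to 0.60 among the entries taken and at 0.16 to 0.28 over whole lists. Stretches of the other entries regained a correlation of at least 0.4 when the counts were taken from an entry a fixed number of positions earlier in the numbering of the peaks, and such stretches held 19.7% to 30.5% of a list. The difference between the listed log2 enrichment and the log2 count ratio, in contrast, followed the GC content at the entry's own coordinates, also where counts did not follow length (r of -0.70 to -0.84, entries with at least 200 input reads). Entries whose counts followed length made up 38.9% of the hPSC list, 36.6% of the DE, 12.8% of the PP, 10.6% of the hILO, 8.56% of the WT PP and 7.59% of the A5-KO PP list. They included 29 of the 170 member peaks (17.1%). Positions of peaks are therefore the main evidence here, read counts are compared where they followed length, and other enrichment values are given with this limit. The lists were filtered on the same enrichment values, and how far this touched the presence of a peak in a list was not tested.

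The sites that best represent the common positions are shown first. For each gene the longest stretch under a peak in all 4 stages was taken, and within it the DRACH motif nearest the middle, with motifs that hold GGAC preferred. DRACH is the m6A consensus, a central A and C behind any base but C (D) and a purine (R) and before any base but G (H). The capitals mark the motif, the lower-case letters are 12 genomic bases on each side, and all are on the transcript strand of GRCh38.
EZH1: ataggtgaaaaaAAACTtttcaccagcct
EZH2: agaagaaagatgAAACTtcgagctcctct
SUZ12: aagaacaaaatgGGACAgcaaatggattt
EED: gagcagtgacgaGAACAgcaatccagacc
JARID2: agaactggtcaaGGACAccaaacccaatc
RING1: ggacacaaatgaGGACAcgtggcttttat
RNF2: agaagataatggTGACAgttcacactgca
BMI1: caccagagagatGGACTgacaaatgctgg
CBX2: ggtgtcaggaggGGACTtctggcccacct
PHC1: aggggattactgAGACAgggaagagaagt

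These sites lay in the CDS of EZH2 (chr7:148817878-148817906, minus strand, exon 10), SUZ12 (chr17:31998891-31998919, plus strand, exon 16), EED (chr11:86245298-86245326, plus strand, exon 1), JARID2 (chr6:15496287-15496315, plus strand, exon 7), RNF2 (chr1:185098117-185098145, plus strand, exon 5) and BMI1 (chr10:22329273-22329301, plus strand, exon 10). They lay in the 3′ UTR of EZH1 (chr17:42700567-42700595, minus strand, exon 21), RING1 (chr6:33212510-33212538, plus strand, exon 7), CBX2 (chr17:79785450-79785478, plus strand, exon 5) and PHC1 (chr12:8939577-8939605, plus strand, exon 15). Exons are numbered on the longest coding isoform. GGAC was present in 5 of the 10 motifs. A motif within a peak is a description and does not locate the modified base.

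All 10 members carried at least 1 peak in all 6 lists, where 37.7% of 20046 protein-coding genes did. For the 4 stages alone the share of all genes was 41.2%. In single lists it was 60.2%, 57.0%, 52.2% and 57.7% from hPSC to hILO, then 62.8% (WT PP) and 69.7% (A5-KO PP). Expression of the genes was not analysed here. The members carried 30, 30, 27 and 24 peaks from hPSC to hILO, then 30 (WT PP) and 29 (A5-KO PP). Their median was 2.5, 2.5, 2.0, 2.5, 3.0 and 2.5 peaks per gene in that order, beside 2.0 in each stage and 3.0 in both lists of batch 2 over all coding genes with a peak. The number of peaks per transcript was thus close to that of other transcripts.

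**Figure D1:**
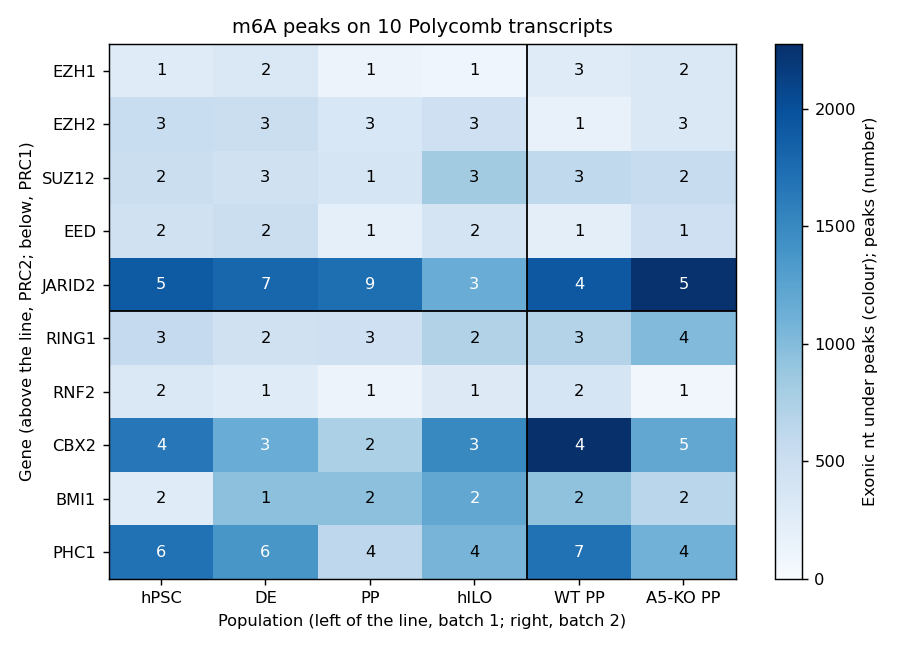
Peaks on 10 Polycomb transcripts (rows, PRC2 above the line and PRC1 below) in 6 populations (columns). Numbers are peaks and colour is the exonic length under peaks in nt, which reaches 2275 nt on CBX2 in WT PP and 2250 nt on JARID2 in A5-KO PP, while RNF2 has 75 nt in A5-KO PP.

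The members differed widely in the length under peaks. JARID2 was covered over 1150 nt (hILO) to 2250 nt (A5-KO PP), CBX2 over 750 nt (PP) to 2275 nt (WT PP), PHC1 over 625 to 1700 nt and BMI1 over 275 to 1200 nt. The member with the longest coverage was JARID2 in hPSC, DE, PP and A5-KO PP and CBX2 in hILO and WT PP. EZH1 was covered over 100 to 325 nt, RNF2 over 75 to 375 nt, EZH2 over 175 to 525 nt and EED over 200 to 500 nt. As a share of the exons of the gene, RING1 ran from 24.8% in DE to 55.9% in A5-KO PP. It was the highest member in hPSC, hILO and A5-KO PP, JARID2 was so in DE and PP (28.8% and 27.6%) and CBX2 in WT PP (40.1%). In PP 6 genes (EZH2, SUZ12, EED, RNF2, CBX2 and PHC1) had their shortest coverage of the 4 stages, for example CBX2 with 750 nt against 1150 to 1650 nt and PHC1 with 625 nt against 1075 to 1700 nt. Of the 7562 coding genes with peaks in all 6 lists, 38.4% had their shortest coverage in PP as well, more than in any other stage (13.6% to 19.7%), and the PP list was the shortest of the 6, whose part in this was not tested.

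Peaks that shared a base across lists were joined into 41 stretches, numbered from the 5′ end of each gene. In all 4 stages 18 of them were covered, and in all 6 lists 13, though not always at the same bases. Each of the 10 genes had bases under a peak in all 4 stages, beside 88.0% of the 7562 coding genes with peaks in all 6 lists. Bases under a peak in all 6 lists were found on 8 of the 10 genes, beside 74.5%, and were lacking on EED and RNF2. The length common to the 4 stages ran from 100 nt on EZH1 to 925 nt on JARID2, a median of 32.9% of the length covered in any stage, beside 27.6% over those genes. Across 6 lists the median was 16.1%, beside 11.9%.

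**Figure D2:**
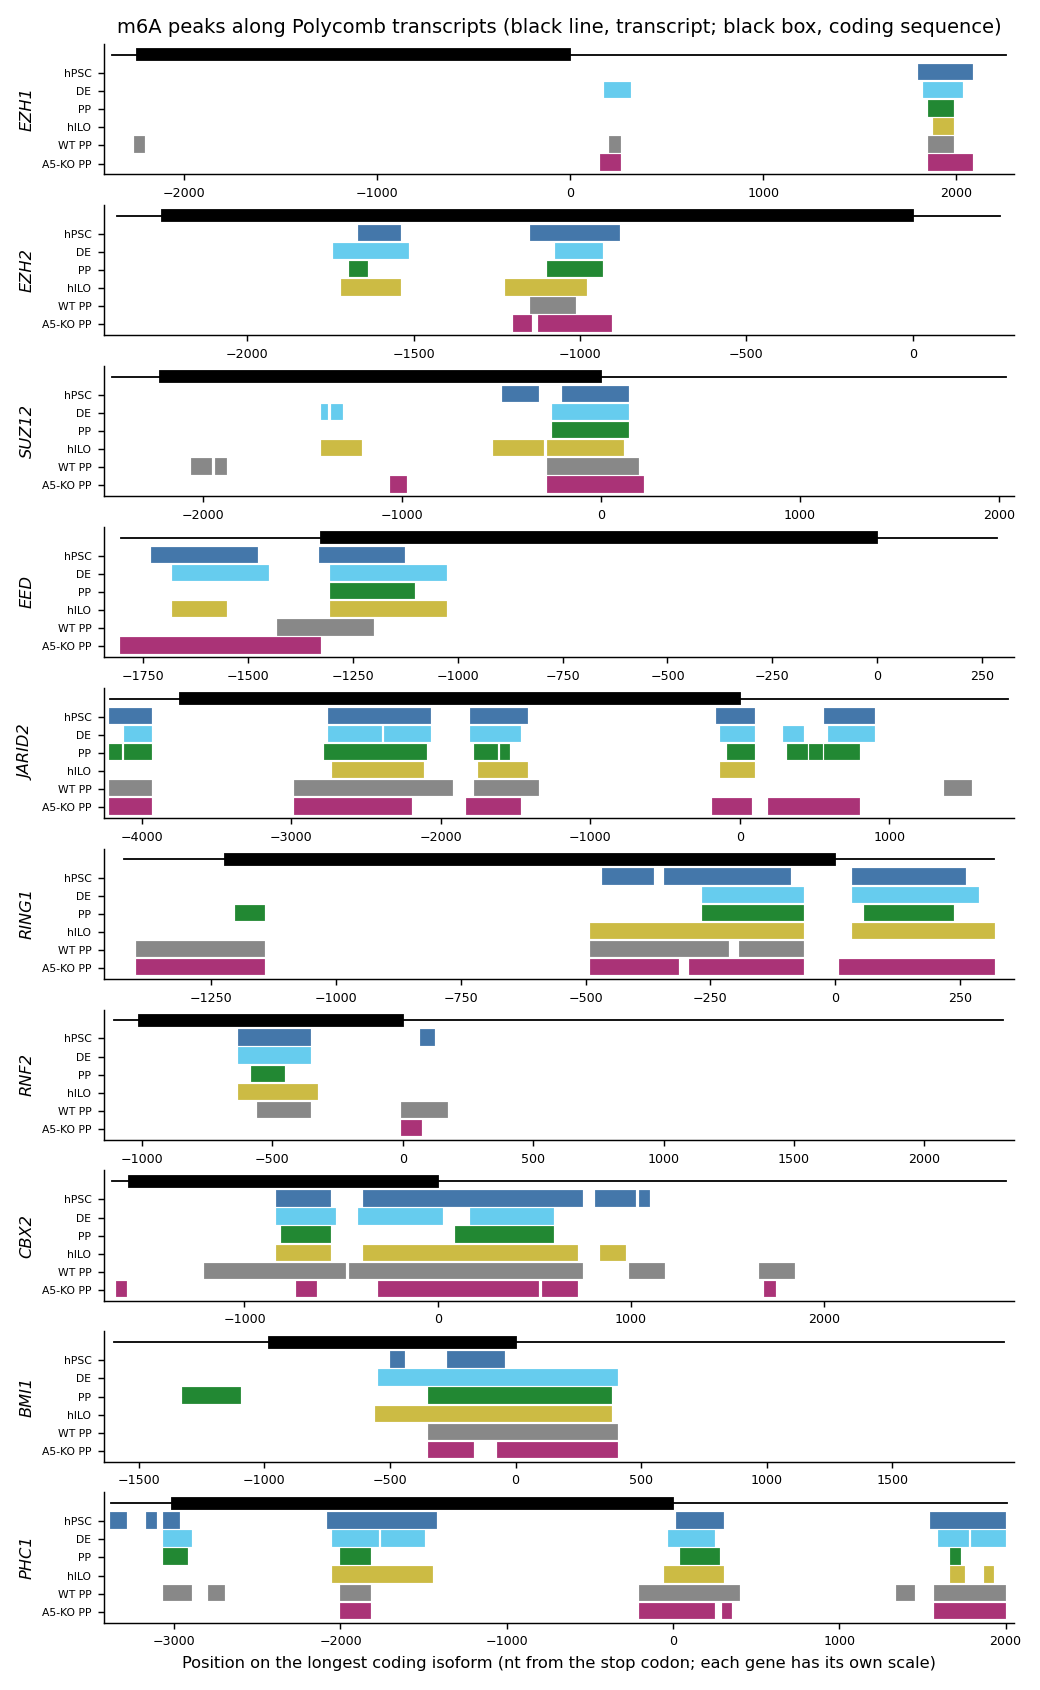
Peaks (coloured bars, one row per population) along the longest coding isoform of each gene, in nt from the stop codon, with each gene on its own scale. Every gene has a place where the bars of the 4 stages stand over each other, such as the end of the SUZ12 coding sequence and the far 3′ UTR of EZH1.

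Within PRC2, EZH2 carried its peaks on coding exons in all lists, though the midpoint of 1 peak in DE and 1 in PP fell outside the exons of the longest isoform. Its stretches lay in exons 6 to 8, exon 10 and exon 11, and the 4 stages had a peak in each. WT PP had 1 peak, in exon 10 (chr7:148817834-148818008), and A5-KO PP had 3, in exons 10 and 11. EZH1, its alternative, carried its peaks mainly in the 3′ UTR. The distal one, in exon 21 and centred 1944 nt after the stop codon, was present in all 6 lists, with 275 nt in hPSC, 200 nt in DE, 125 nt at the PP stage and 100 nt in hILO. A proximal one (chr17:42702225-42702374) was present in DE with 125 nt, WT PP with 50 nt and A5-KO PP with 100 nt. A peak of 100 nt near the start codon was listed in WT PP alone. The catalytic subunits thus differed in where along the transcript their peaks lay. On the longest coding isoforms the 3′ UTR has 2257 nt in EZH1 and 263 nt in EZH2, too short for a counterpart of the distal peak.

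SUZ12 had 1 peak over its stop codon region in every list, with 325 nt in hPSC, 375 nt in each later stage, then 450 nt (WT PP) and 475 nt (A5-KO PP). Its common stretch of 300 nt (chr17:31998813-31999112, exon 16) held 12 DRACH motifs and was covered in all 6 lists. Upstream coding peaks came and went: exons 14 to 16 in hPSC and hILO, exons 7 to 9 in DE and hILO, exons 1 to 3 in WT PP and exons 10 and 11 in A5-KO PP. EED was covered at its 5′ end. A 5′ UTR peak was listed in hPSC, DE, hILO and A5-KO PP, and a peak from exon 1 into exon 2 or 3 in the 4 stages and WT PP. The EED peaks of WT PP (chr11:86245128-86250304) and A5-KO PP (chr11:86244753-86245227) met over part of their length, and no base was common to 6 lists. All 9 EED peaks were listed with MIR6755 as well, which overlaps the gene.

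JARID2 had the most peaks, 33 over the lists, on 6 stretches. The large exon 7 was covered in all lists, with 675, 650, 675 and 600 nt from hPSC to hILO, then 1050 nt (WT PP) and 775 nt (A5-KO PP). A 5′ UTR peak (chr6:15246069-15246343) was present in hPSC, DE, PP, WT PP and A5-KO PP and had no counterpart in hILO. The proximal 3′ UTR (chr6:15520449-15521148) showed the same pattern among the stages, with 325 nt in hPSC, 425 nt in DE and 425 nt in PP and 0 nt in hILO. The JARID2 peaks of hILO thus lay in the coding sequence and over the stop codon. In batch 2 that 3′ UTR stretch was covered over 600 nt in A5-KO PP and 0 nt in WT PP.

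Within PRC1, both ligases carried coding peaks. RNF2 had 1 peak over exons 4 and 5 in the 4 stages and WT PP, with 275 nt in hPSC and DE, 125 nt in PP, 300 nt in hILO and 200 nt in WT PP, and 0 nt in A5-KO PP. A second RNF2 stretch at the stop codon and 3′ UTR was covered over 50 nt in hPSC, 175 nt for WT PP and 75 nt for A5-KO PP. RING1 had peaks in exons 5 to 7 in all 6 lists and in the 3′ UTR in 5, the exception being WT PP. At its 5′ end (chr6:33208525-33209603) RING1 was covered in progenitor lists, over 100 nt in PP and 300 nt for both WT PP and A5-KO PP, and not in hPSC, DE or hILO.

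BMI1 was covered at the end of the coding sequence and the start of the 3′ UTR, over 275, 950, 725 and 950 nt from hPSC to hILO, then 750 nt (WT PP) and 650 nt (A5-KO PP). The hPSC peaks stayed within the coding sequence, whereas coverage in the other lists ran on into the 3′ UTR. A 5′ UTR peak of 225 nt was listed in PP alone. Each of the 11 BMI1 peaks was listed with COMMD3-BMI1, COMMD3 or both, the neighbouring gene and its readthrough transcript, so these peaks cannot be assigned to BMI1 alone. The peaks of CBX2 lay in its last exon, with the exception of a 5′ UTR peak of 50 nt in A5-KO PP. Its stretch from the coding part of exon 5 into the 3′ UTR was covered in all lists, over 1125, 850, 500 and 1100 nt from hPSC to hILO, then 1200 nt (WT PP) and 1000 nt (A5-KO PP).

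PHC1 had 31 peaks on 9 stretches, the most stretches of the members. Coding exons 7 and 8, the stop codon region and the distal 3′ UTR were covered in all 6 lists. Toward the 5′ end the lists parted. A pair of exon 1 peaks, 150 and 50 nt long, was listed in hPSC alone, and a peak over exons 2 and 3 in hPSC, DE, PP and WT PP, but not in hILO or A5-KO PP. PHC1 and JARID2 were thus alike in that a 5′ stretch covered in hPSC, DE and PP was not covered in hILO. Over all peaks on coding genes the 5′ UTR share was also lowest in hILO among the stages. It was 3.18% there and 3.79% to 5.74% in the others, and its part in this was not tested.

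The midpoints of the member peaks fell in the CDS in 53.3% of cases in hPSC (Wilson 95% interval 36.1% to 69.8%, 30 peaks), 60.0%, 48.1% and 62.5% in the next stages, 46.7% for WT PP and 44.8% for A5-KO PP (28.4% to 62.5%, 29 peaks). The 3′ UTR held 30.0%, 30.0%, 37.0%, 29.2%, 36.7% and 41.4% in the same order. Over all peaks on coding genes the CDS held 39.8% to 46.0% and the 3′ UTR 29.2% to 36.7%. Of those peaks 17.5% to 21.7% had their midpoint outside the longest coding isoform, beside 0% to 10.0% of the member peaks. This lowers the other shares of all peaks more than those of the members. The intervals of the lists overlapped widely. Such intervals cover counting error only and take peaks as independent, which peaks of 1 gene are not. Between 20.0% and 27.6% of the member peaks had their midpoint within 200 nt of the stop codon, beside 14.3% to 18.0% of all peaks on coding genes. These shares rest on 6 to 8 member peaks per list.

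To follow peaks from stage to stage, a peak was called inherited when over 50% of its exonic length lay under a peak of the previous stage. In DE 25 of 30 member peaks were inherited from hPSC (83.3%, 66.4% to 92.7%), beside 64.7% of all DE peaks. In PP 23 of 27 were inherited from DE (85.2%, 67.5% to 94.1%), beside 57.0%. In hILO 12 of 24 were inherited from PP (50.0%, 31.4% to 68.6%), beside 45.6%. Under this rule the share was above that of all peaks in DE and PP, and near it in hILO. This did not hold at the p limit of 1e-05 that the methods state, which 101 of the 170 member peaks met (59.4%, beside 63.2% of all peaks). The lists differed in this, from 46.7% of the member peaks in hPSC (beside 62.4%) to 81.5% in PP (beside 61.8%) and 83.3% in hILO (beside 94.3%). At that limit 41.2% of 17 DE peaks were inherited (21.6% to 64.0%, beside 54.3%), 45.5% of 22 PP peaks (26.9% to 65.3%, beside 46.4%) and 30.0% of 20 hILO peaks (14.5% to 51.9%, beside 31.0%), and each interval held the share of all peaks. With overlap of over 50% in both directions it was 60.0% in DE (42.3% to 75.4%, beside 47.5%) and 66.7% in PP (47.8% to 81.4%, beside 41.2%). With any shared base it was 75.0% in hILO (55.1% to 88.0%, beside 56.2%). The interval lay above the share of all peaks for PP alone among these 3. RNF2, for example, had a hILO peak of 300 nt over a PP peak of 125 nt.

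**Figure D3:**
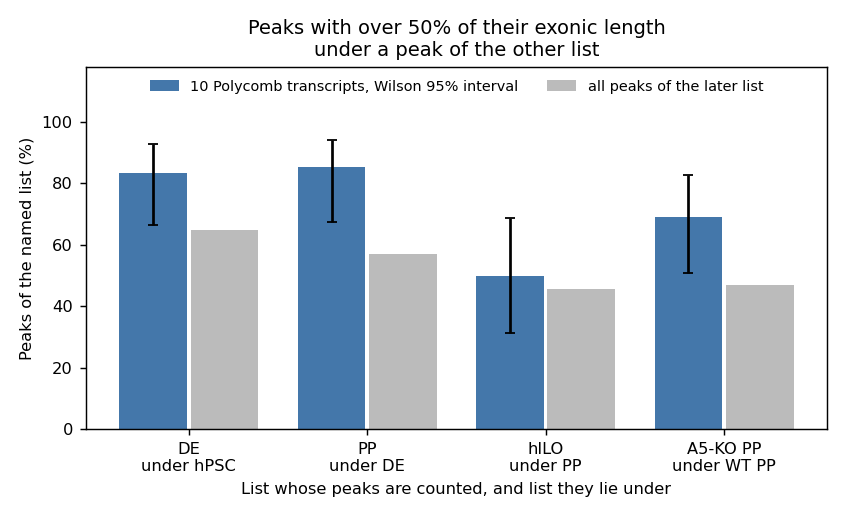
Share of peaks (%) with over 50% of their exonic length under a peak of the other list, for the 10 Polycomb transcripts (blue, with Wilson 95% intervals) and all peaks of the named list (grey). The Polycomb share is 83.3% in DE, 85.2% in PP, 50.0% in hILO and 69.0% in A5-KO PP.

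In the next counts the shares of all peaks again include genes without a peak in the other stages. Peaks without a base under any peak of the other 3 stages were few. They numbered 4 of 30 in hPSC (13.3%, beside 23.5% of all hPSC peaks), 1 of 30 in DE (3.33%, beside 15.9%), 3 of 27 in PP (11.1%, beside 16.7%) and 1 of 24 in hILO (4.17%, beside 22.6%). In hPSC they were the exon 1 peaks of PHC1, a 3′ UTR peak of RNF2 (chr1:185100373-185100422) and one of CBX2 (chr17:79786088-79786137). DE had the proximal 3′ UTR peak of EZH1. PP had the 5′ peaks of RING1 and BMI1 and a JARID2 3′ UTR peak (chr6:15520724-15520798), and hILO had a peak listed under BMI1 and COMMD3 upstream of the BMI1 isoform (chr10:22319886-22320135).

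Loss of ALKBH5 was then examined within batch 2. All members had a peak in both lists, while the shares of all peaks include genes without a peak in the other list. The part of this was not tested. Of the A5-KO PP peaks, 20 of 29 lay over more than 50% of their length under a WT PP peak (69.0%, 50.8% to 82.7%), beside 46.8% of all A5-KO PP peaks. Without any overlap were 7 of 29 A5-KO PP peaks (24.1%, beside 48.0%) and 11 of 30 WT PP peaks (36.7%, beside 39.6%). The 7 were 2 on EZH2 and 2 on JARID2 and 1 each on SUZ12, RING1 and CBX2. The 11 were 4 on PHC1 and 2 on SUZ12 and 1 each on EZH1, JARID2, RNF2, CBX2 and BMI1. Within PHC1 all 4 lay outside the stretches that A5-KO PP covered, 3 of them toward the 5′ end and 1 in the 3′ UTR.

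Read counts in the knockout comparison followed peak length for EZH1, EZH2 and PHC1 in both lists, and 6 pairs of shared peaks could be compared by log2 of (IP reads + 1) over (input reads + 1). The median difference of all 2353 such pairs, -0.15, was subtracted, and the counting error was taken from the IP and input reads. At the distal EZH1 peak WT PP had 129 IP and 25 input reads, and A5-KO PP had 94 IP and 62 input reads. The ratio was lower in A5-KO PP by 1.58 (-1.58, 95% counting range -2.35 to -0.81), and the peak was 125 nt long in WT PP and 225 nt in A5-KO PP. By this ratio it was the only pair of the 6 beyond 1 on the log2 scale. Of the 2353 pairs 13.9% were lower and 17.7% higher by at least 1. By the listed enrichment the EZH1 pair was not beyond 1, at -0.97. PHC1 pairs were, at 1.01 (chr12:8941034-8941458) and -3.96 (chr12:8939759-8939808), so the call depended on the measure.

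At the EZH2 exon 10 peak WT PP had 692 IP and 482 input reads, and A5-KO PP had 361 IP and 178 input reads. The ratio was higher in A5-KO PP by 0.64 (0.33 to 0.95). At the coding PHC1 peak (chr12:8930840-8932649) the difference was -0.19 (-0.35 to -0.03), from 1542 IP and 2100 input reads in WT PP and 780 and 1345 in A5-KO PP. At the PHC1 stop codon region (chr12:8938015-8939708) it was -0.38 (-0.70 to -0.05), and a second A5-KO PP peak over the same WT PP peak gave -0.44 (-1.36 to 0.48). At the distal PHC1 3′ UTR peak (chr12:8941034-8941458) it was 1.00 (0.53 to 1.47), just under the threshold before rounding, from 624 IP and 177 input reads in WT PP and 366 and 57 in A5-KO PP. The differences thus had both signs, also within PHC1. The counting ranges hold no variation between cultures, and the standard deviation of the difference over the 2353 pairs was 2.19.

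Along PHC1 the ratio in both lists was lower in the coding exons than toward the 3′ end. It was below 0 in coding exons 7 and 8 (-0.45 for WT PP and -0.79 for A5-KO PP) and above 1 at the stop codon (2.07 and 1.54) and in the distal 3′ UTR (1.81 and 2.66). The stop codon peak was the higher of the last pair in WT PP and the lower in A5-KO PP. The medians of the entries whose counts followed length were 1.71 for WT PP and 1.94 for A5-KO PP. In WT PP the 2 peaks at exons 2 to 5 were below 0 as well, at -0.69 and -0.52. Neither depth nor GC content was corrected for in these ratios, so a value below 0 does not mean depletion in the IP. The listed log2 enrichment was 2.29 (WT PP) and 1.98 (A5-KO PP) at exons 7 and 8. At exons 2 to 5 it was 2.09 and 1.62 in WT PP. The 3 peaks of EZH1 in WT PP stood at 2.32 (distal), 2.41 (proximal 3′ UTR) and 2.18 (near the start codon), with 10 to 25 input reads each. In A5-KO PP the distal EZH1 peak stood at 0.59 and the proximal one at 3.44, the latter with 5 input reads. The counting errors of the proximal peak were 0.44 (WT PP) and 0.64 (A5-KO PP), too large to tell its levels apart. The proximal pair was not among the 6, since no more than 50% of the A5-KO PP peak lay under the WT PP peak.

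**Figure D4:**
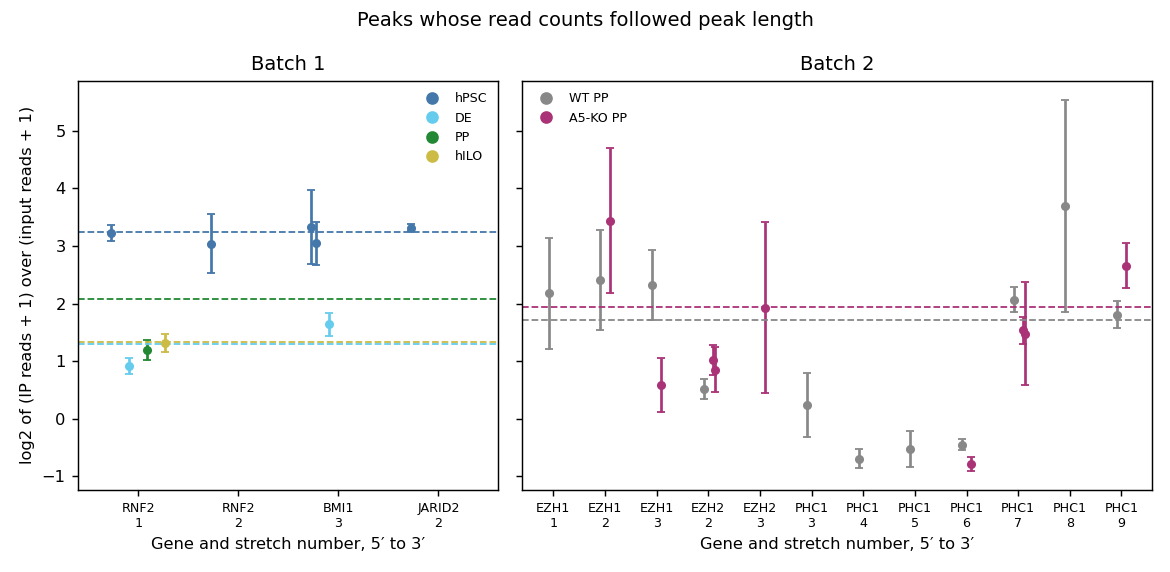
log2 of IP over input reads (y axis) at member peaks whose counts followed peak length, by gene and stretch number from the 5′ end (x axis), in batch 1 (left) and batch 2 (right). Bars are 95% counting ranges and dashed lines the median of such entries in each list. Ratios are not corrected for depth or GC content. PHC1 stretch 6 lies below 0 in WT PP and A5-KO PP, while stretches 7 and 9 lie above 1.

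In the 4 stages RNF2 was the member whose counts followed length in every list. Its peak over exons 4 and 5 had 4344 IP and 464 input reads in hPSC, 1320 and 698 in DE, 818 and 356 at the PP stage and 1090 and 437 in the organoids. The log2 ratios were 3.22, 0.92, 1.20 and 1.32, and relative to the median of such entries in each list they were -0.02, -0.37, -0.89 and -0.02 in the same order. Among the entries whose counts followed length, the RNF2 peak stood near the middle in hPSC and hILO and at the 5th percentile in PP. The counting errors were 0.07 to 0.09, and the PP peak was 125 nt long against 275 to 300 nt. Less the median difference of all such pairs, the RNF2 ratio differed by -0.30 (-0.49 to -0.11) from hPSC to DE, where 1.75% of pairs were higher by at least 1 and 1.20% lower. From DE to PP it differed by -0.45 (-0.67 to -0.23), where 0.953% were higher and 1.00% lower. From PP to hILO, where 0.699% were higher and 1.72% lower, no member peak met the overlap rule with such counts in both lists. BMI1 peaks stood within 0.20 of the median in hPSC (220 IP and 21 input reads, and 512 and 61) and 0.35 above it in DE (830 and 265). The JARID2 exon 7 peak of hPSC, with 25322 IP and 2531 input reads, stood 0.07 above the median.

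The enrichment values as listed are given for completeness, with the limit that counts did not follow the coordinates in most of these entries. From hPSC to DE 1 of 25 shared member peaks was higher by at least 1 on the log2 scale and 3 were lower, beside 4.47% and 6.89% of all shared peaks. From DE to PP 4 of 23 were higher and 1 lower, beside 7.37% and 8.17%, and from PP to hILO 1 of 12 was higher and 3 lower, beside 4.16% and 13.2%. From WT PP to A5-KO PP 3 of 20 were higher and 9 lower, beside 38.2% and 28.8%, with a median of -0.86 over the 20 and 0.25 over all. With 50 or more input reads in both lists 3 of 11 were higher and 3 lower, so the excess of lower peaks was not seen there. In 14 of these 20 pairs the counts did not follow length in at least 1 list, and among them was the largest fall with at least 50 input reads, -4.50 on BMI1 (chr10:22329473-22329947). The DRACH motif with GGAC nearest the middle of that peak is shown because this difference was the largest, on the plus strand of GRCh38 in 3′ UTR exon 10 (chr10:22329677-22329705), with the motif in capitals.
BMI1 3′ UTR: gctataaaagatGGACTacatgtgatact

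For all shared peaks, the correlation of count ratios between WT PP and A5-KO PP across peaks was 0.80 where counts followed length and 0.24 elsewhere.

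DRACH was denser in member peaks than in the other exons of the same genes in each list, with 19.4 to 21.4 motifs per kb in peaks and 16.7 to 17.0 per kb outside. The core motif GGAC, which is part of DRACH when the next base is A, C or T, differed more, with 4.5 to 5.4 per kb in peaks and 1.8 to 2.1 per kb outside, a ratio of 2.18 (hILO) to 2.96 (WT PP). The opposite strand of the peaks held 13.4 to 16.1 DRACH and 1.9 to 3.5 GGAC motifs per kb. The other exons were those of all annotated isoforms, which on EZH2 merge to 10774 nt against 2654 nt in the longest coding isoform. Whether all of them were expressed was not examined, and the part of this in the ratios was not tested. Both motifs were searched on the transcript strand unless stated. They are common, since 84.0% of 741317 windows of 100 nt on the longest coding isoforms of all genes held a DRACH motif and 29.7% held GGAC, beside 81.6% and 25.2% of 381 windows on the members. GGAC was denser in the peaks than outside on 7 (hILO) to 9 (DE and A5-KO PP) of the 10 genes, depending on the list. The exceptions varied. They were EZH2 and RING1 in hPSC, EZH2 in DE, EZH1 and EED in PP, EZH1, RING1 and PHC1 in hILO, EED and RING1 in WT PP, and RNF2 in A5-KO PP. RNF2 peaks held 9.2 GGAC per kb in hPSC against 0.3 outside, but 0.0 against 1.0 in A5-KO PP, where 75 nt were covered. RING1 peaks held 5.2 against 6.5 in hPSC and 8.4 against 5.2 in PP, so the sign for single genes changed between lists.

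The list of other Polycomb genes held 32, among them RBBP4, PCGF and CBX paralogues, BCOR and the ASXL genes. At least 1 peak was found on 22, 25, 25 and 26 of them from hPSC to hILO, on 28 (WT PP) and 29 (A5-KO PP) in batch 2, and on 17 in all 6 lists (53.1%, beside the 37.7% of coding genes). The most peaks over the 4 stages lay on LCOR with 44, a gene whose locus also makes a PRC2 accessory subunit, on ASXL1 with 43, a partner of the BAP1 deubiquitinase, and on BCORL1 with 25, a subunit of a variant PRC1. EZHIP, an inhibitor of PRC2, and SCML2 carried no peak in any list. CBX7, a paralogue of CBX2, had 0 peaks in each stage, 1 for WT PP and 2 for A5-KO PP. As listed, 26 of 59 shared peaks of these genes were higher by at least 1 in A5-KO PP and 17 lower, beside 38.2% and 28.8% of all shared peaks. Where each list had 50 or more input reads, 8 of 21 were higher and 6 lower. The largest differences among these were 4.01 on LCOR, -2.96 on ASXL2 and 2.60 on AEBP2, none of them with counts that followed length.

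The labels were checked by peaks on marker genes. Of 4 pluripotency markers, POU5F1 and NANOG carried peaks in hPSC and DE alone, LIN28A in all 4 stages, and DPPA4 in hPSC, DE and PP and, with 6 and 4 peaks, in WT PP and A5-KO PP. Of 4 endoderm markers, FOXA2, GATA6 and SOX17 had peaks in DE and not in hPSC, CXCR4 had 1 in hPSC and 4 in DE, and SOX17 had 3 for WT PP and 2 for A5-KO PP but 0 for PP. Of the progenitor markers, PDX1 and NKX6-1 had peaks in PP, hILO and both lists of batch 2, while SOX9 also had 2 in hPSC and MNX1 3 in DE. INS, GCG and SST had peaks in hILO alone, and CHGA, also endocrine, in all 6 lists. Peaks on markers thus separated the stages in part, and the lists of batch 2 held peaks on markers of earlier stages. Of 4 hepatic markers, AFP, ALB, APOA1 and TTR, all had a peak in hILO, 3 for WT PP, 2 for A5-KO PP, 1 for DE and 0 for PP, and their part in the results was not tested. ALKBH5 had 4 peaks with WT PP and 5 with A5-KO PP, whose counts did not follow length, so the knockout could not be checked from these lists. IP reads in peaks numbered between 30723097 (DE) and 79822815 (hPSC) per list and input reads between 6987612 (PP) and 28463998 (hILO), and a peak with few input reads is less certain. Of the WT PP member peaks, 9 of 30 lay over more than 50% of their length under a PP peak (30.0%, beside 22.4% of all WT PP peaks), and antibody, RNA and experiment cannot be told apart in this comparison of progenitors.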

How the data were processed

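Human cells were profiled by m6A-seq in 24 libraries. The authors used fastp for trimming and HISAT2 for alignment on GRCh38, and called peaks with exomePeak2 (IP/input of at least 1.5, stated p limit 1e-05), 1 list per population with its libraries pooled. The deposited values were read counts of IP and input per peak, a log2 enrichment, and p-values with adjusted p-values. The lists held peaks above that limit too, and all were used. Sum or mean pooling and the exomePeak2 version are not given in the sources used here.

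Peak spans were reduced to the exons of the gene in GENCODE 44 on GRCh38 (coordinates 1-based). All 10 genes matched by identifier. Rows were ordered as in the list, and Pearson's r of log exonic length and log IP count was taken over 601 rows around each. Rows in order with r of at least 0.4 were used for counts. This step was tested on simulated data. Count ratios used a pseudocount of 1, and the counting error 0.5. No count model could be fitted without counts for each library. The members, lists and tests were chosen with earlier results of these data known. All 10 members are named; of 32 other genes, those with the most peaks over the 4 stages, with none, and with the 3 largest listed knockout differences at 50 or more input reads, and CBX7, which was chosen after its values were seen. SUZ12P1 and PHC1P1, pseudogenes, carried 6 and 7 peaks of their own, so reads of SUZ12 and PHC1 may be shared with them. Intervals were Wilson 95%. Python 3.11.15, pandas 2.3.3 and pysam 0.24.0 were used. Alternatives covered thresholds, the overlap rule, the isoform, coverage and the motif background.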

Additional observations from a re-analysis of the deposited data

How the results depend on the processing

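No paired analysis was possible because a list merges both libraries of a group, and for the same reason other size factors, a replicate block and leaving out each replicate could not be run. Of the alternatives, 92 values stayed within the tolerance set for them and 51 moved. The inherited share of DE moved from above that of all peaks to below it at p below 1e-05 (41.2%, interval 21.6% to 64.0%, beside 54.3%). The cause was not tested except where a stricter rule admits fewer peaks by construction. The p and enrichment thresholds act on listed values, and in most entries the counts listed with these did not follow peak length. Whether the p-values go with their peaks was not tested. The 170 member peaks became 108 at IP/input of at least 3, 101 at p below 1e-05 and 71 at p below 1e-10. The inherited share became 60.0% in DE and 66.7% in PP with reciprocal overlap, 66.7% in PP counted from DE, 75.0% in hILO with any overlap, and, at p below 1e-05, 41.2% (DE), 45.5% (PP) and 30.0% (hILO). The CDS share of WT PP was 66.7% with any overlap. Where both lists had 50 or more input reads, 0 peaks were higher and 1 lower from hPSC to DE, 2 higher and 1 lower from DE to PP, 1 higher and 0 lower from PP to hILO, and 3 higher and 3 lower in A5-KO PP. With 1 offset per list, 3 were higher and 2 lower from DE to PP, and 1 higher and 7 lower in A5-KO PP. Beyond the counting error 5 were higher and 13 lower in A5-KO PP, and with reciprocal overlap 3 were higher and 4 lower. The next alternative, chosen after seeing the data, was the log2 count ratio in rows whose counts followed length. By it 0 were higher and 0 lower from hPSC to DE (1 pair) and from DE to PP (1 pair). In A5-KO PP 0 were higher and 1 lower (6 pairs), and PP to hILO had no such pair. With counts taken at the lag of the stretch, also chosen after seeing the data, 0 were higher and 0 lower from hPSC to DE (6 pairs), DE to PP (2 pairs) and PP to hILO (1 pair), and in A5-KO PP 0 were higher and 3 lower (9 pairs). On the opposite strand of the peaks as the background, the GGAC ratio was 1.38 in hPSC and 1.30 in hILO.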
